A study of Mus musculus with 24 samples.

Results

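The 43 genes described here are the matrix metalloproteinases (Mmp), the metalloproteinases with thrombospondin motifs (Adamts) and the tissue inhibitors of metalloproteinases (Timp) on the array. They were chosen by symbol from the probe sets that name exactly 1 gene: any Mmp number, any Adamts number and Timp1 to Timp4. This gave 21 Mmp, 18 Adamts and 4 Timp genes of 19505 named genes, each with 1 probe set. Mmp15, Mmp27 and Adamts2 were not analysed here.

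RNA of 24 samples of the outbred mouse strain ICR-CD1 was hybridised to single-colour arrays, 1 array per sample, in 6 groups of 4. The samples were labelled whole embryo at embryonic day 7.5 (ED7.5), whole embryo at embryonic day 14.5 (ED14.5) and liver at postnatal day 7.5. Each age had a control group and a group called SL, whose members were grandoffspring of obese grandfathers. The labels do not say what SL abbreviates, whether a sample held 1 animal or a pool, or whether the samples in a group were littermates. They name no genetic change in any group.

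Matrix metalloproteinases are zinc enzymes that are made as inactive precursors and cut collagens, laminins, fibronectin and other proteins of the extracellular matrix once their propeptide is removed. Adamts enzymes are secreted relatives that cut proteoglycans such as versican and aggrecan, trim procollagens or act on single plasma and matrix proteins. The Timp proteins bind the active site of these enzymes and block it. In the mouse, implantation brings invasion of the uterine wall by trophoblast and conversion of uterine stroma to decidua, and both tissues are known for remodelling their matrix. In the liver, stellate cells, macrophages and neutrophils are known sources of these enzymes.

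Values are deposited log2 expression values, and a difference of 1 in log2 is a doubling. As background, the 75% point of the 5222 probe sets that lie in introns was taken on each array. Of the 43 members, 23 were above background on all 4 arrays of at least 1 group, and 9 of these on all 24 arrays. Another 7 were above it on some arrays only and 13 on no array. Levels of different genes are not compared with each other, since each probe set responds to its own sequence.

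The sample labels were first set against cell type markers. In both ED7.5 groups 19 of 19 decidua markers were above background on all 4 arrays, against 7 of 19 in control liver. The brightest over all arrays were Mest, Igfbp4 and Gja1, with control means of 12.38, 10.66 and 13.16 at ED7.5 and 11.52, 12.15 and 7.42 in liver, so Gja1 alone of these set ED7.5 apart. Prl8a2, Prl3c1, Hoxa10, Hoxa11 and Pgr were above background on no control liver array. Of 11 epiblast and primitive streak markers, Eomes, which is also in the uterine natural killer cell list, was above background on all ED7.5 control arrays, 3 were above it on some of them and 7 on none. The ED7.5 samples are called implantation site here for their decidua markers, although the label reads whole embryo. At ED14.5 16 of 17 hepatocyte and 12 of 12 erythroid markers were above background on all control arrays, and 0 of 14 markers of neurons, muscle and cartilage. The ED14.5 arrays, also labelled whole embryo, thus carried markers of fetal liver. Of the 14 markers of the other embryonic tissues listed, 13 were above background on no ED14.5 control array and 12 on no ED14.5 SL array. In bulk samples like these, fewer cells of a type and less RNA per cell cannot be told apart. Between 48.3% and 64.1% of genes were above background per array. The ED7.5 control replicate 2 stood apart by its background of 6.53, against 5.05 to 5.77 on the other 3 arrays of its group.

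Of the members, 9 lie in a cluster on mouse chromosome 9 at chr9:7272514-7699585 (GRCm38.p6). Each has another of them as direct neighbour, but Mmp8 and Mmp20 are not direct neighbours of each other. The order along the chromosome is Mmp13, Mmp12, Mmp1b, Mmp3, Mmp1a, Mmp10, Mmp8, Mmp20 and Mmp7. They hold all 4 collagenase genes measured here, both stromelysins Mmp3 and Mmp10, the matrilysin Mmp7, the macrophage elastase Mmp12 and the enamel protease Mmp20. Of these 9, only Mmp1a and Mmp8 were above background on any array. The promoters of 6 of them are shown from 110 bases before to 10 after the RefSeq start, because the cluster shares sequence features while its members differed in where they were detected. Capitals mark TGANTCA, the letters bound by AP-1 factors, which is its own reverse complement, and TATAAA, the TATA box, searched on the gene's strand only. The windows lie at chr9:7272404-7272523 for Mmp13, chr9:7388017-7388136 on the minus strand for Mmp1b, chr9:7445712-7445831 for Mmp3, chr9:7464031-7464150 for Mmp1a, chr9:7502232-7502351 for Mmp10 and chr9:7558319-7558438 for Mmp8, with the genes other than Mmp1b on the plus strand.
Mmp13: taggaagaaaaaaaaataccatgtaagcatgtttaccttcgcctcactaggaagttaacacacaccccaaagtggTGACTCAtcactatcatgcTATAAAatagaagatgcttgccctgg
Mmp1b: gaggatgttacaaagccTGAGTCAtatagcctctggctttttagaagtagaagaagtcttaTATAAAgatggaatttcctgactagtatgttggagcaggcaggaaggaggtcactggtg
Mmp3: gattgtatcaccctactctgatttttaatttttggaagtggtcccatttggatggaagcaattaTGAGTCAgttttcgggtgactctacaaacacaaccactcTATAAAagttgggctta
Mmp1a: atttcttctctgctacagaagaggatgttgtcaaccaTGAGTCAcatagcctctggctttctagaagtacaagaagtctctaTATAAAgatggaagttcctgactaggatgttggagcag
Mmp10: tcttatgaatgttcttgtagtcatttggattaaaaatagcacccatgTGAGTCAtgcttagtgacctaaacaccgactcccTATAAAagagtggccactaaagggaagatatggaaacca
Mmp8: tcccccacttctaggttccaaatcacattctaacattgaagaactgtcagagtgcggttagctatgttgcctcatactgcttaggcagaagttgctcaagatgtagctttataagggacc

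The AP-1 letters TGANTCA were found in the full RefSeq promoter windows of 8 of the 9 cluster genes, all but Mmp8, and in 0 of the 20 other members that have a window. Among all 32851 RefSeq windows 7.81% hold the letters, 8.32% hold TATAAA and 0.995% hold both. All 8 of these cluster genes hold both in a window, a count by gene, while the 9 cluster genes have 11 windows. In Mmp12 the TATAAA match begins after the annotated start. In the cluster the AP-1 letters began 35 to 95 bases before the start. Mmp12 and Mmp7 have a second window each, without the AP-1 letters. The windows also differed in base composition, with 37.7% to 52.0% G and C in the cluster and 53.3% to 80.0% in the other members. The share of the letters in windows of like composition was not tested. Of the 43 members, 14 had no window in the table. A match of letters is a description of the sequence only.

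The first comparison asked how the genes differed between the implantation site at ED7.5 and the liver. In control samples 20 of the 43 members were higher at ED7.5 and 7 were lower, with 16 not called. Of the 43, 21 were above background on all 4 arrays of a group compared, and of these 14 were called higher and 5 lower. The other 8 calls were on members that did not pass this filter, which was chosen after the data were seen. Among all genes 29.7% were called higher and 20.2% lower. The median difference was 0.53 in log2 over the members and 0.069 over all genes. The 3 detected inhibitors, both gelatinases, both procollagen-processing Adamts genes and 6 of 7 proteoglycan-cleaving Adamts genes were called higher. Of these 6 Adamts genes, 4 were above background on all 4 arrays of a group compared. Lower at ED7.5 were Adamts6, Adamts7, Adamts10, Adamts13, Mmp8, Mmp19 and Mmp25. Without ED7.5 control replicate 2 the counts were 20 higher and 7 lower.

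**Figure D1:**
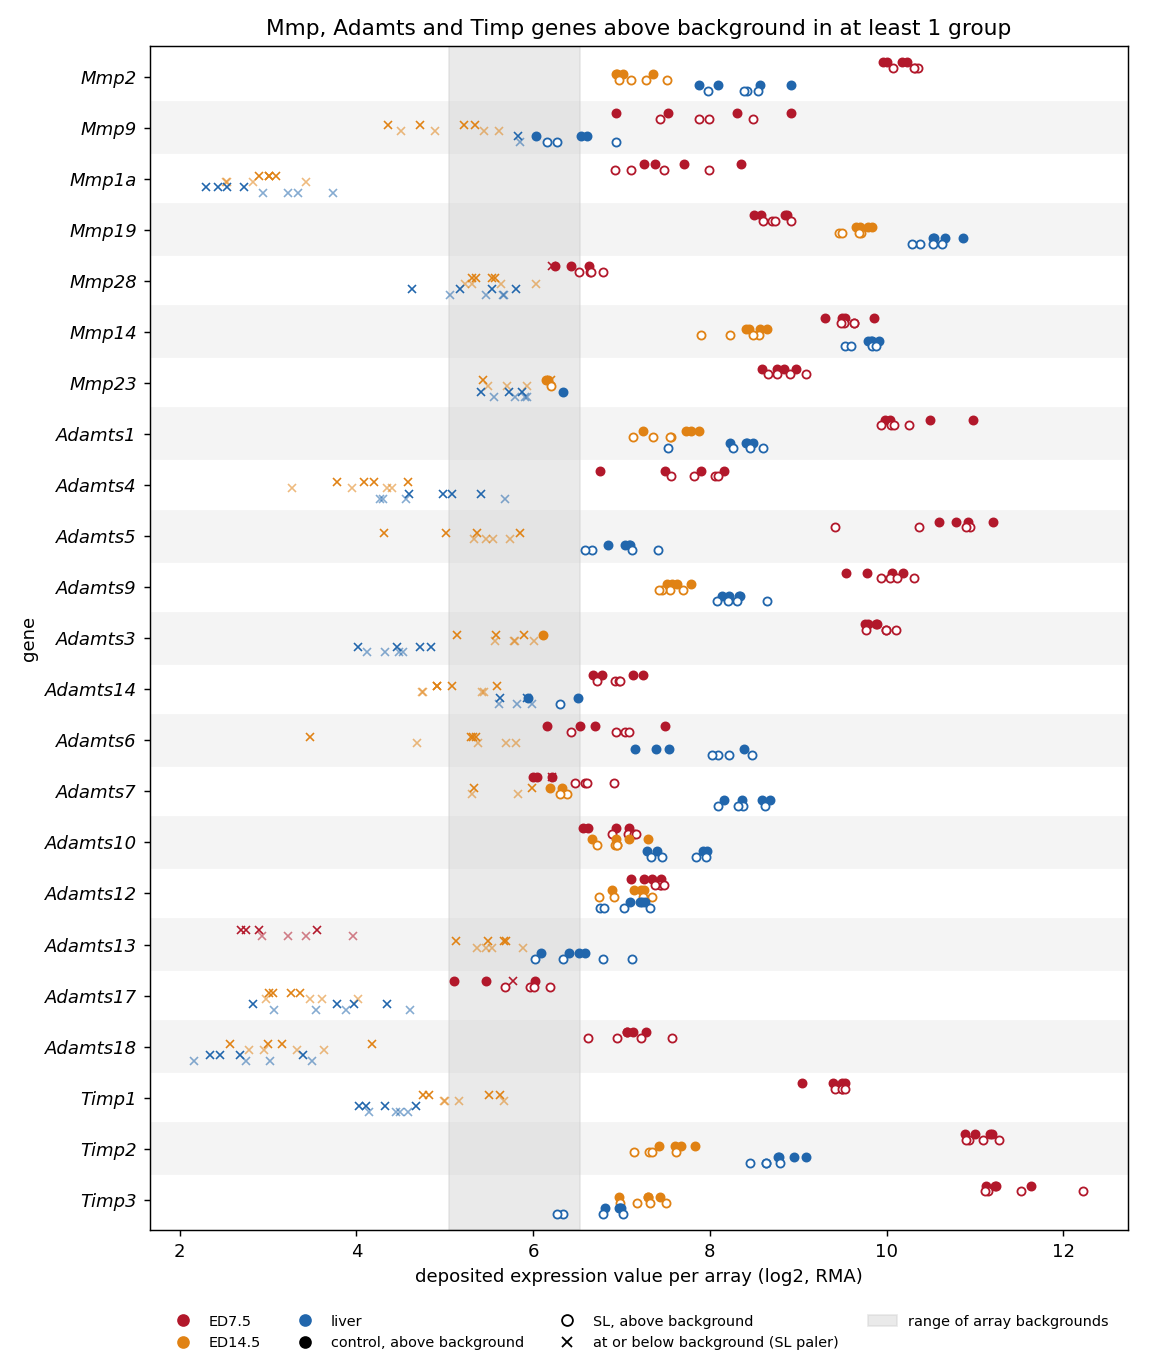
Deposited log2 value of the 23 members above background on all 4 arrays of at least 1 group, by gene (rows) and array (points), with ED7.5 in red, ED14.5 in orange and liver in blue. Filled circles are control arrays, open circles SL arrays, crosses values at or below the background of their array, and the grey band spans the backgrounds of the 24 arrays. Adamts3, Timp1, Timp3, Adamts5, Mmp1a and Adamts18 show ED7.5 arrays far to the right of all others. In Mmp19, Adamts7 and Adamts13 the liver arrays lie to the right of all others. The gap is widest in Adamts7 and narrow in Adamts13, at 6.02 on liver SL replicate 3 and 5.88 on ED14.5 SL replicate 4.

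Of the inhibitors, 3 were higher at ED7.5 and the other one, Timp4, lay below background on all 24 arrays. Timp1, a secreted inhibitor that also binds the precursor of Mmp9, read 9.49, 9.04, 9.40 and 9.53 in log2 on the 4 ED7.5 control arrays and 4.11, 4.67, 4.03 and 4.32 on the 4 control liver arrays. All liver arrays lay below background, and the ED7.5 level was at least 11-fold higher (a difference of 5.08, SE 0.175, adjusted p = 1.74e-09). The SL samples gave 9.41 to 9.53 at ED7.5 and 4.14 to 4.59 in liver, a difference of 5.07 (SE 0.124, adjusted p = 6.51e-10). At ED14.5 Timp1 read 4.75 to 5.63 in control samples, all below background.

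Timp3, which is held in the matrix and also blocks Adamts4 and Adamts5, read 11.22, 11.24, 11.64 and 11.12 on the ED7.5 control arrays and 6.82, 6.996, 6.97 and 6.98 on the control liver arrays. The groups were far apart, with ED7.5 20.6-fold higher (4.36 in log2, SE 0.141, adjusted p = 1.08e-09). In SL samples the values were 11.14, 12.23, 11.11 and 11.52 at ED7.5 and 6.79, 6.34, 7.01 and 6.27 in liver, a difference of 4.90 (SE 0.268, adjusted p = 1.67e-07). Replicate 2 was the high one of the SL ED7.5 arrays. The ED14.5 control arrays read 6.97 to 7.43, and their difference from liver, 0.31 (95% interval 0.026 to 0.59), did not pass (adjusted p = 0.0734). That difference did pass without ED14.5 control replicate 4, at 0.40 (adjusted p = 0.0247), under quantile normalization (adjusted p = 0.0454) and without the dimmest 33% of genes (adjusted p = 0.0407).

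Timp2, which serves both as an inhibitor and as the bridge by which Mmp14 activates Mmp2, read 11.01, 10.89, 11.17 and 11.19 on the ED7.5 control arrays and 8.78, 8.77, 9.09 and 8.95 on those of control liver. It was 4.49-fold higher at ED7.5 (2.17, SE 0.133, adjusted p = 1.87e-07), and by 2.42 in the SL samples (adjusted p = 1.39e-07). Its lowest values were those of ED14.5, at 7.43 to 7.83 in control samples, 1.27 below liver (SE 0.13, adjusted p = 2.57e-05). Timp1, Timp3 and Timp4 each lie within a synapsin gene, Syn1, Syn3 and Syn2. The hosts Syn1 and Syn2 were above background on no array. Syn3 was above it on 4 control and 3 SL liver arrays and on none at ED7.5 or ED14.5, so it did not share the ED7.5 values of Timp3.

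Both gelatinases, which cut denatured collagen and the type IV collagen of basement membranes, were higher at ED7.5. Mmp2 read 10.01, 9.96, 10.18 and 10.23 on the ED7.5 control arrays and 8.09, 7.88, 8.56 and 8.92 on the control liver arrays. Liver was well above background too, and ED7.5 exceeded it 3.32-fold (1.73, SE 0.215, adjusted p = 5.41e-05). In the SL samples the difference was 1.93 (SE 0.144, adjusted p = 1.78e-06), with 10.08 to 10.36 at ED7.5 and 7.98 to 8.54 in liver. The lowest Mmp2 values were those of ED14.5, at 6.94 to 7.36 in control samples, and lay 1.30 below liver (SE 0.223, adjusted p = 0.000851).

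Mmp9 had the largest SD within a group of the members above background there, 0.869 in log2 at ED7.5 in control samples. It read 6.94, 7.53, 8.31 and 8.92 on the ED7.5 control arrays, 7.99, 7.87, 8.49 and 7.44 on the ED7.5 SL arrays and 5.83, 6.03, 6.61 and 6.54 on the control liver arrays. No liver array reached an ED7.5 array of its arm, and the differences were 1.67 (SE 0.378, adjusted p = 0.00369) in the control arm and 1.64 (SE 0.268, adjusted p = 0.000514) in the SL arm. All ED14.5 arrays lay below background, with ED7.5 at least 3.47-fold higher (3.02, SE 0.395, adjusted p = 8.97e-05). Neutrophils are a known source of Mmp9. Of the 12 neutrophil granule and precursor markers, 3 were above background on all ED7.5 control arrays, 9 on those of ED14.5 and 9 on those of liver. The log2 of their summed level was 10.49 to 11.45, 12.27 to 12.73 and 12.62 to 13.37 in these groups, and Mpo, Prtn3, Camp, Ngp, Chil3 and Fcnb were above background on no ED7.5 control array. The part of these cells in the Mmp9 values was not tested.

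Among the collagenases, which make the first cut in fibrillar collagen, Mmp1a and Mmp8 were detected in different tissues. Mmp1a, a mouse counterpart of human MMP1, read 7.25, 7.38, 7.70 and 8.36 on the ED7.5 control arrays and 2.54, 2.30, 2.43 and 2.73 on the control liver arrays. It was above background on every ED7.5 array and on no other, and ED7.5 was at least 3.41-fold higher than liver (5.17, SE 0.228, adjusted p = 1.21e-08). In SL samples the values were 7.48, 7.11, 7.99 and 6.93 at ED7.5 and 3.23, 3.34, 3.74 and 2.94 in liver, with ED7.5 at least 2.56-fold higher (adjusted p = 3.71e-07). Its close paralog Mmp1b, whose promoter above carries the same letters, was below background on all arrays. Its values at ED7.5 still exceeded those of liver by 1.53 in the control arm (adjusted p = 0.000274) and 1.14 in the SL arm (adjusted p = 0.00292), and how far Mmp1a RNA binds the Mmp1b probes was not tested.

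Mmp8, the collagenase of neutrophil granules, ran the other way. Control liver read 5.66, 6.00, 6.45 and 6.31, above background on 3 of 4 arrays, and SL liver 6.50, 6.64, 5.53 and 5.99, above it on 2. All ED7.5 arrays were below background, at 3.02 to 3.73 in control samples, so liver was at least 1.37-fold higher in the control arm and at least 1.48-fold higher in the SL arm (differences of −2.72 and −2.66 for ED7.5 minus liver, adjusted p = 9.46e-07 and 1.12e-05). The ED14.5 control arrays lay between them at 4.37 to 5.15, also below background. The neutrophil markers given beside Mmp9 were likewise higher in liver than at ED7.5, with means of 5.10 and 10.36 for S100a9, 8.62 and 9.61 for S100a8, and 10.18 and 11.35 for Lcn2 in control ED7.5 and liver samples, and their part in the Mmp8 difference was not tested. Mmp13, the collagenase of cartilage and bone, was below background on every array, with values of 3.52 to 4.33 at ED7.5 and 2.99 to 4.16 in liver in the control arm.

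**Figure D2:**
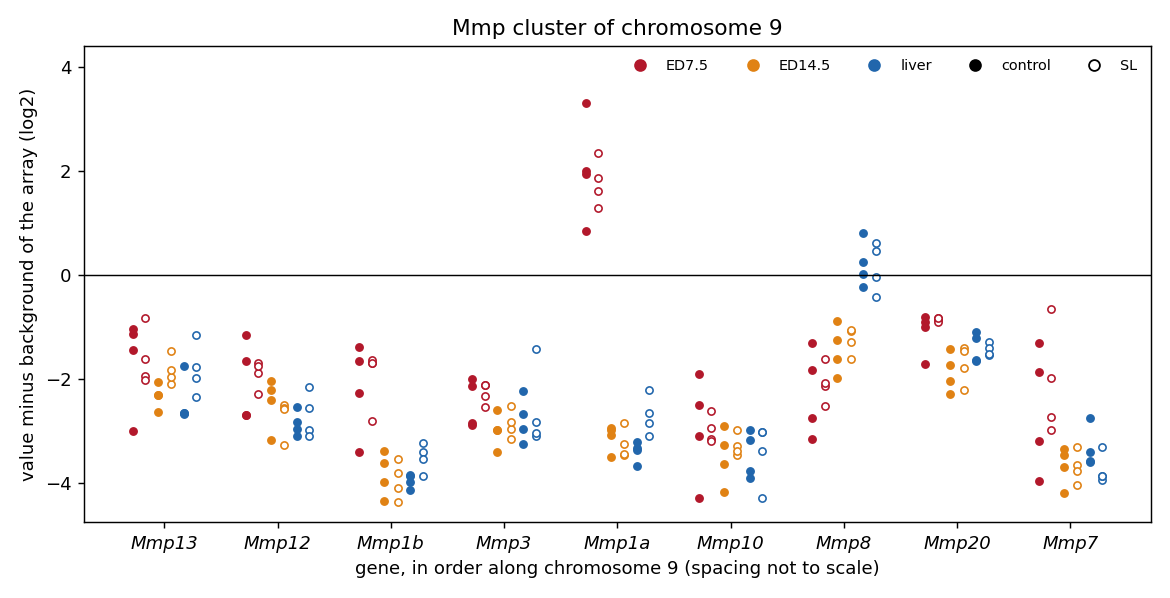
Log2 value minus the background of the array for the 9 Mmp genes of the chromosome 9 cluster, in chromosomal order, with 1 point per array (ED7.5 red, ED14.5 orange, liver blue; filled control, open SL). The line at 0 is the background. The ED7.5 arrays of Mmp1a and some liver arrays of Mmp8 lie above it, and every other point lies below.

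Of the stromelysins and matrilysin, proteases of broad matrix range, 0 of 4 were called in the control arm. Mmp3, Mmp7 and Mmp10 were below background on all arrays. Mmp7 was called higher at ED7.5 in the SL arm (1.24, adjusted p = 0.0336) with every array below background. Mmp11, known from stroma around epithelial tumours and from the placenta, was above background on 3 ED7.5 control arrays and 1 control liver array, and its values overlapped, at 5.18 to 5.90 and 5.21 to 5.98.

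Mmp19, a secreted protease of basement membrane proteins, was higher in liver and detected on all 24 arrays. Control liver read 10.53, 10.54, 10.87 and 10.66, and the ED7.5 control arrays 8.497, 8.58, 8.87 and 8.86. The difference of ED7.5 minus liver was −1.95 (SE 0.142, adjusted p = 7.45e-07) in control and −1.72 (SE 0.124, adjusted p = 1.39e-06) in SL samples. The ED14.5 control arrays, at 9.66 to 9.83, lay between the groups, 0.90 below liver (SE 0.117, adjusted p = 0.000129) and 1.04 above ED7.5 (SE 0.119, adjusted p = 3.28e-05). Of 12 macrophage and Kupffer cell markers, 3, 10 and 12 were above background on all control arrays of ED7.5, ED14.5 and liver, with a summed log2 level of 10.73 to 11.08, 11.63 to 12.09 and 13.02 to 13.11. The Kupffer cell markers Clec4f, Vsig4, Cd5l, Marco and Timd4 were above background on no ED7.5 control array. Csf1r, the receptor of the macrophage growth factor and the brightest of the list over all arrays, did not share the order of Mmp19, with means of 10.42, 9.12 and 10.03. The part of these cells in the Mmp19 values was not tested. Mmp12, the macrophage elastase, was below background on all arrays, those of liver included.

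Mmp28, the epidermal protease epilysin, read 6.25, 6.22, 6.43 and 6.63 on the ED7.5 control arrays, 3 of them above background, and 4.63 to 5.80 in control liver, all below. ED7.5 was at least 1.4-fold higher in the control arm (adjusted p = 0.00242) and at least 1.55-fold in the SL arm (adjusted p = 0.000109). Mmp20 and Mmp21, known for enamel and for left-right patterning of the embryo, were below background throughout.

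The membrane-bound Mmp genes differed among themselves. Mmp14, which activates Mmp2 at the cell surface, was detected on all 24 arrays, with 9.49, 9.31, 9.53 and 9.86 on the ED7.5 control arrays and 9.83, 9.79, 9.83 and 9.92 on those of liver. The difference of −0.29 (95% interval −0.60 to 0.014) did not pass (adjusted p = 0.105), nor did that of the SL arm, −0.15 (95% interval −0.42 to 0.13, adjusted p = 0.348). The control difference did pass without ED7.5 control replicate 4 (−0.40, adjusted p = 0.0319), with a trended variance (adjusted p = 0.0442) and under quantile normalization (adjusted p = 0.0416). The ED14.5 control arrays read 8.44, 8.57, 8.65 and 8.41 and lay below both others, by 1.32 against liver (SE 0.106, adjusted p = 4.99e-06) and by 1.03 against ED7.5 (SE 0.133, adjusted p = 7.98e-05).

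Mmp23, a short protease anchored by its propeptide that also affects potassium channels, read 8.59, 8.84, 8.98 and 8.76 on the ED7.5 control arrays and 5.41, 5.88, 6.33 and 5.73 on the control liver arrays, 1 of them above background. The difference was 2.96 (SE 0.191, adjusted p = 2.72e-07) in the control arm, and ED7.5 was at least 7.14-fold higher in the SL arm, where all liver arrays were below background. At ED14.5 Mmp23 was above background on 2 control arrays and 1 SL array. Mmp16, a transmembrane Mmp known from brain and cartilage, was above background on 3 arrays in each ED14.5 group, at 6.17, 6.77, 6.65 and 6.10 in control samples, and was higher there than in liver by 1.02 (SE 0.206, adjusted p = 0.00229). Mmp25, a lipid-anchored protease of leukocytes, was called lower at ED7.5 by 0.60 in the control arm (adjusted p = 0.0134) with 1 of 4 control liver arrays above background, and by 0.82 in the SL arm (adjusted p = 0.00134). Mmp17 was above background on 1 ED7.5 and 1 liver control array, Mmp24 was below it on every array, and neither was called.

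The proteoglycan-cleaving Adamts genes were higher at ED7.5 in 6 of 7 members in the control arm and 5 of 7 in the SL arm, and lower in 0 in either arm. Adamts5, an aggrecanase that also cuts versican, read 10.78, 10.92, 10.60 and 11.20 on the ED7.5 control arrays, 7.04, 6.84, 7.08 and 7.09 on the control liver arrays and 5.37, 5.01, 5.85 and 4.31 on the ED14.5 control arrays. The 3 groups did not overlap. ED7.5 was 14.5-fold above liver (3.86, SE 0.151, adjusted p = 4.58e-09) and at least 26.8-fold above ED14.5, where all arrays were below background. In SL samples the ED7.5 arrays read 10.94, 9.42, 10.90 and 10.37, with replicate 2 the low one, and the difference from liver was 3.46 (SE 0.333, adjusted p = 1.21e-05).

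Adamts1, a versican-cutting enzyme needed in the mouse for normal female fertility, lies next to Adamts5 on chromosome 16. It read 10.49, 9.99, 10.04 and 10.98 on the ED7.5 control arrays and 8.23, 8.41, 8.42 and 8.49 on the control liver arrays, 3.96-fold higher at ED7.5 (1.99, SE 0.21, adjusted p = 1.51e-05). The SL difference was 1.87 (SE 0.217, adjusted p = 4.64e-05). ED14.5 was lowest here too, at 7.25 to 7.88 in control samples, 0.73 below liver (SE 0.153, adjusted p = 0.003).

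Adamts9, a versican-cutting enzyme needed for early development of the mouse embryo, read 9.54, 10.18, 10.06 and 9.78 on the ED7.5 control arrays and 8.33, 8.21, 8.13 and 8.35 on the control liver arrays. ED7.5 was 3.11-fold higher (1.64, SE 0.158, adjusted p = 7.49e-06), with a difference of 1.79 in the SL arm (adjusted p = 4.22e-06). Adamts4, the other main aggrecanase, read 7.90, 6.75, 7.49 and 8.17 at ED7.5 and 4.595 to 5.41 in liver in control samples. Since liver was below background on all arrays, ED7.5 was at least 3.19-fold higher in the control arm (adjusted p = 2.56e-05) and at least 3.65-fold in the SL arm (adjusted p = 9.73e-06). Adamts8 was below background on all arrays. Adamts15 was called higher at ED7.5 in both arms with overlapping groups (adjusted p = 0.0219 and 0.0459), and was above background on 1 control and 2 SL arrays of ED7.5. Adamts20, needed in the mouse for pigment cell migration, was called in the control arm alone (0.67, adjusted p = 0.0104, against 0.11 and 0.736 in the SL arm), with every array below background.

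Adamts3, which removes the amino-terminal propeptide of procollagens and activates the lymphatic growth factor VEGF-C, was detected on every ED7.5 array and on no liver array. It read 9.79, 9.89, 9.89 and 9.76 on the ED7.5 control arrays and 4.45, 4.72, 4.02 and 4.84 on the control liver arrays, a difference of 5.32 (SE 0.177, adjusted p = 1.35e-09). The SL arrays read 9.995, 10.11, 9.77 and 9.99 at ED7.5 and 4.53, 4.12, 4.32 and 4.48 in liver, a difference of 5.60 (SE 0.133, adjusted p = 5.67e-10). All liver arrays were below background, so the folds are lower bounds, at least 15.2-fold and 15.4-fold in the control and SL arms. Adamts14, a related procollagen protease, read 6.78, 6.68, 7.24 and 7.13 on the ED7.5 control arrays and 5.94, 5.63, 6.51 and 5.93 on those of liver, 2 of them above background, a difference of 0.96 (SE 0.205, adjusted p = 0.00264).

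The other Adamts genes, with single substrates or substrates still poorly known, were divided, with 3 called higher, 4 lower and 2 not called in the control arm. Adamts13, the protease of von Willebrand factor that liver stellate cells release into plasma, read 6.40, 6.52, 6.09 and 6.59 in control liver and 2.69, 2.75, 3.55 and 2.89 at ED7.5. All ED7.5 arrays were below background, and liver was at least 1.68-fold higher in the control arm and at least 1.96-fold in the SL arm (differences of −3.43 and −3.18 for ED7.5 minus liver, adjusted p = 1.38e-07 and 5.59e-06). The ED14.5 control arrays lay between them at 5.12 to 5.69, below background, with liver at least 1.21-fold higher. Of 13 stellate cell and fibroblast markers, 11, 10 and 12 were above background on all control arrays of ED7.5, ED14.5 and liver, with a summed log2 level of 14.25 to 14.37, 12.002 to 12.43 and 13.29 to 13.66. The brightest over all arrays, Dcn, Col3a1 and Bgn, did not share the order of Adamts13. Their control means were 11.72, 10.59 and 11.07 at ED7.5, 10.30, 8.90 and 8.62 at ED14.5 and 12.07, 10.53 and 9.83 in liver. Colec11, a lectin of liver stellate cells, was the only one of the 13 above background on no ED7.5 array. The part of stellate cells and fibroblasts in the Adamts13 values was not tested.

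Adamts7, which cuts cartilage oligomeric matrix protein, read 8.36, 8.68, 8.16 and 8.60 in control liver and 6.00, 6.21, 6.04 and 6.22 at ED7.5, 3 of them above background. The difference of ED7.5 minus liver was −2.33 (SE 0.146, adjusted p = 2.1e-07) in the control arm and −1.70 (SE 0.149, adjusted p = 5.85e-06) in the SL arm. Adamts10, a fibrillin-binding family member, was lower at ED7.5 by 0.84 in the control arm (SE 0.196, adjusted p = 0.00425), with 6.57, 7.08, 6.94 and 6.62 against 7.40, 7.29, 7.97 and 7.92 in liver. Adamts6, a close relative of Adamts10, read 6.16, 7.49, 6.53 and 6.70 at ED7.5 and 7.54, 7.16, 7.39 and 8.39 in liver, and these groups overlapped. Its control difference of −0.90 was close to the threshold (SE 0.316, adjusted p = 0.0361). The call was lost without ED7.5 control replicates 1, 3 or 4 or liver control replicates 1 or 4, each left out in turn (adjusted p from 0.0593 to 0.103). In the SL arm the groups of Adamts6 did not overlap, with a difference of −1.33 (SE 0.173, adjusted p = 0.000106).

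Adamts18, known for roles in lung and eye development, was detected on every ED7.5 array and on no other. It read 7.06, 7.13, 7.28 and 7.06 on the ED7.5 control arrays and 2.34 to 3.39 in control liver, at least 2.35-fold higher at ED7.5 (4.42, SE 0.213, adjusted p = 2.49e-08). Adamts17, mutated in a human syndrome of short stature and small spherical lenses, was above background on 3 of 4 ED7.5 control arrays, at 5.47, 5.77, 6.03 and 5.11, and on all 4 SL arrays, at 5.97, 6.01, 5.69 and 6.19. It was below background in liver, and its ED7.5 means did not exceed the mean liver background of their arm, so no bound is given. The differences were 1.86 (SE 0.309, adjusted p = 0.000477) and 2.19 (SE 0.285, adjusted p = 0.000108) in the control and SL arms. Adamts16, above background on 2 arrays in each ED7.5 group, had differences of 1.78 and 1.74 (adjusted p = 0.000131 and 6.99e-05). Adamts12, a relative of Adamts7, was detected on all 24 arrays, with 7.11, 7.25, 7.35 and 7.45 at ED7.5 and 7.09, 7.21, 7.23 and 7.27 in liver (0.089, 95% interval −0.18 to 0.36, adjusted p = 0.585). Its SL difference of 0.46 passed (adjusted p = 0.021), but not without ED7.5 SL replicate 3 or liver SL replicates 1 or 3 (adjusted p from 0.0522 to 0.0544), nor under quantile normalization (adjusted p = 0.0806). Adamts19 was below background on all arrays.

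The SL arm shares no array with the control arm. In it 21 members were higher at ED7.5 and 7 lower, where 30.2% and 21.2% of all genes were called. Of the 23 members above background on all arrays of a group compared, 17 were called higher and 5 lower. The median difference was 0.37 over the members and 0.045 over all genes. Of the 43 members, 19 were called higher in both arms, 7 lower in both and 14 in neither. The calls differed for Adamts12 and Mmp7, called higher in the SL arm alone, and for Adamts20, called higher in the control arm alone, and the test of the difference between arms did not pass for any of these 3 (adjusted p = 0.573, 0.674 and 0.565 in a fit of all 24 arrays). No member was called in opposite directions. In the SL arm the array backgrounds did not overlap, at 5.50 to 5.64 at ED7.5 and 5.89 to 6.19 in liver. How well control probes in exons stood out from those in introns (1 is complete) did not overlap either, at 0.932 to 0.939 and 0.897 to 0.904. The part of these array differences in the calls of the SL arm was not tested.

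**Figure D3:**
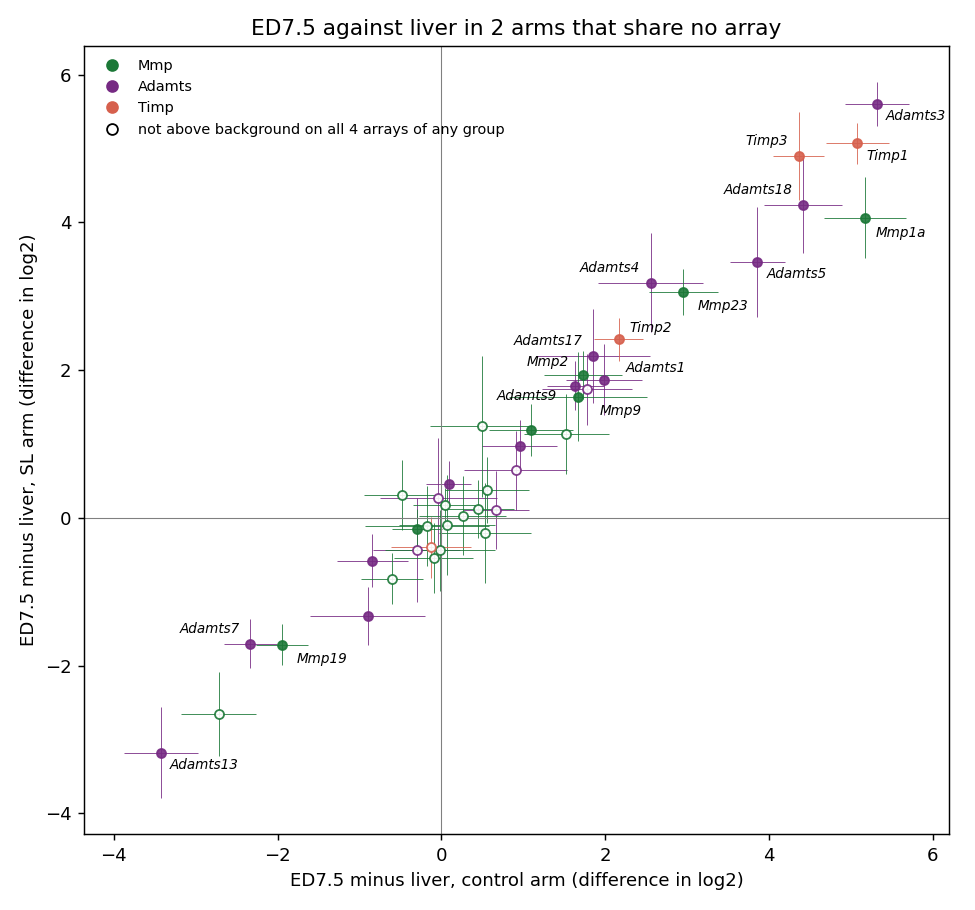
Difference of ED7.5 minus liver in log2 for the 43 members, in the control arm (horizontal) and in the SL arm (vertical), with lines for the 95% intervals. Open points are members that were not above background on all 4 arrays of any ED7.5 or liver group. Adamts3, Timp1, Mmp1a, Adamts18, Timp3 and Adamts5 lie at the upper right and Adamts13, Adamts7 and Mmp19 at the lower left.

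Set against the liver after birth, the ED14.5 control samples had 7 members higher and 15 lower, where 24.6% and 20.5% of all genes were called. Of the 13 members above background on all arrays of a group compared, 0 were called higher and 11 lower. The median difference was −0.35 over the members and 0.025 over all genes. Adamts5, Adamts6 and Adamts7 were lower at ED14.5 by 1.88, 2.76 and 2.49 (adjusted p = 0.000304, 0.000468 and 9.37e-06). Against the ED14.5 backgrounds liver was at least 1.85-fold higher for Adamts5 and at least 2.81-fold for Adamts6. Adamts9 was lower by 0.63 (adjusted p = 0.00107), Adamts14 by 0.88 (adjusted p = 0.00724) and Mmp9 by 1.35 (adjusted p = 0.00153), with liver at least 1.09-fold higher for Mmp9. Adamts10 was lower by 0.65 with overlapping groups (adjusted p = 0.0227), a call lost without ED14.5 control replicates 3 or 4 or liver control replicates 3 or 4 (adjusted p from 0.0543 to 0.0645). Adamts12 differed by −0.072 (95% interval −0.34 to 0.19, adjusted p = 0.671). The 7 members higher at ED14.5 were Adamts3, Adamts20, Mmp1a, Mmp12, Mmp16, Mmp21 and Timp1, and of these only Adamts3 and Mmp16 were above background on any array of the comparison.

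Between the ED7.5 and ED14.5 control samples, 21 members were higher at ED7.5 and 5 were lower, where 26.3% and 25.6% of all genes were called. Of the 19 members above background on all arrays of a group compared, 16 were called higher and 1 lower. The median difference was 0.61 over the members and −0.027 over all genes. Adamts5, Timp1, Mmp1a and Adamts18 were below background on all ED14.5 control arrays, and ED7.5 was at least 26.8-fold, 9.42-fold, 2.91-fold and 2.01-fold higher. Timp3 was 16.6-fold higher at ED7.5, and Adamts3, above background on 1 ED14.5 control array, was higher by 4.15 in log2. Mmp2 and Timp2 were 8.15-fold and 10.8-fold higher at ED7.5, and Adamts1 and Adamts9 6.55-fold and 4.82-fold. The adjusted p of these members ran up to 3.21e-06. Adamts14, Adamts4, Adamts6 and Mmp28 were at least 1.77-fold, 2.72-fold, 1.51-fold and 1.19-fold higher at ED7.5, and Mmp23 was higher by 2.80 (adjusted p = 4.08e-07). Adamts7 differed by 0.16, Adamts10 by −0.20 and Adamts12 by 0.16, and none of these passed (adjusted p from 0.309 to 0.543). Those lower at ED7.5 were Adamts13, Mmp8, Mmp16, Mmp19 and Mmp21. This comparison shares its arrays with the previous ones.

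Over the 3 ages, 19 of the 43 members (44.2%) were called higher at ED7.5 than in both others in control samples, beside 18.8% of all genes. Of these 19, 14 were among the 21 members above background on all 4 arrays of some control group (66.7% of the 21). Among all genes that pass the same filter the share was 24.8%. A member can pass that filter through its high group alone, so this second count is a description. Among the 14, liver was called above ED14.5 in 8 and below it in 3 (Adamts3, Mmp1a and Timp1), and 3 were not called. For Mmp1a, Timp1, Adamts4 and Adamts18 every ED14.5 and liver array was below background, so the order of these ages ranks values within background. Adamts3 exceeded background on 1 ED14.5 control array and on no liver array. In 5 members, Adamts6, Adamts7, Adamts10, Adamts13 and Mmp19, liver was above both. Mmp14 was lowest at ED14.5 and Adamts12 fell in none of these patterns. The order of the 3 means was the same in the SL samples for 18 of the 21, the others being Adamts10, Adamts12 and Mmp1a.

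Genes that work with these enzymes were read from lists that go beyond the members, beside which 29.7% of all genes were called higher at ED7.5 than in control liver and 20.2% lower. Of 23 genes of the plasminogen system and of other activators and inhibitors, 7 were higher at ED7.5 than in control liver and 12 lower, with a median of −0.50. Those with the smallest p were products of hepatocytes: Plg, the plasminogen whose active form releases several Mmp precursors, was at least 149.4-fold higher in liver, the broad protease inhibitor Pzp at least 147.4-fold and the membrane protease Hpn at least 10.7-fold, all 3 below background on every ED7.5 control array. The plasmin inhibitor Serpinf2, above background on 2 of those arrays, differed by −7.58 for ED7.5 minus liver (adjusted p of these 4 genes up to 3.19e-09). Of 23 cathepsins and other matrix proteases, 12 were higher and 5 lower, with a median of 0.73. Here Htra1 differed by 6.07, Adam19 by 5.09, Htra3 by 4.44 and the collagen-cutting cathepsin Ctsk by 4.38 (adjusted p up to 6.82e-09), and Htra1 is also one of the decidua markers.

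A list of Adamts-like and other genes that share the thrombospondin repeats without the protease held Adamtsl1 to Adamtsl5, Papln, Thsd4, Thsd1 and Sspo. Of these 9 genes, 5 were higher at ED7.5 and 0 lower, with a median of 0.65. Adamtsl5 differed by 1.86 (adjusted p = 3.3e-06), and Thsd4, below background on all control liver arrays, was at least 3.61-fold higher at ED7.5 (adjusted p = 2.77e-05). Adamtsl1 and Adamtsl3 differed by 0.65 and 0.87 (adjusted p = 0.00648 and 0.00983), with Adamtsl3 below background on all arrays compared. Of 28 substrates, 10 were higher, 6 lower and 12 not called, with a median of 0.12, shares near those of all genes. Versican (Vcan), the substrate of the proteoglycan-cleaving Adamts enzymes, was higher at ED7.5 by 3.08 (adjusted p = 4.11e-06). The laminin chain Lamc1 was higher by 1.97 and Sparc by 1.10, while fibronectin (Fn1), which hepatocytes release into plasma, differed by −2.45 (adjusted p = 6.9e-07, 1.04e-05 and 1.72e-07). Of other cells in the samples, 9 of 10 uterine natural killer cell markers were above background on all ED7.5 control arrays and 2 of 10 on those of liver. The counts for trophoblast markers were 3 of 12 and 0 of 12, and for endothelial markers 8 of 13 and 13 of 13. The summed log2 level of the endothelial markers overlapped, at 13.37 to 13.67 and 13.28 to 13.61. The mean log2 over all 13 was lower at ED7.5, at 8.16 to 8.53 against 9.28 to 9.60. The brightest of them were higher on average at ED7.5, with 11.45 against 10.06 for Cdh5, 11.06 against 10.08 for Lyve1 and 10.61 against 10.21 for Eng. The part of natural killer, trophoblast and endothelial cells in the values of the members was not tested. In the SL arm the counts higher and lower at ED7.5 were 7 and 12 (plasminogen list) and 13 and 4 (cathepsin list). For the thrombospondin repeat list they were 5 and 1 and for the substrates 12 and 6, beside 30.2% and 21.2% of all genes. At ED14.5 against liver they were 2 and 12, 1 and 10, 2 and 2, and 1 and 18, beside 24.6% and 20.5% of all genes. In the SL against control comparisons 0 genes of any of the 4 lists passed.

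The comparison named in the study's title is that of SL with control samples at each age. By limma, 0 of 43 members passed at ED7.5, at ED14.5 or in the liver, where 0.00513%, 0.0513% and 0% of all genes passed. An unadjusted p below 0.05 was reached by 2 members at ED7.5, 1 at ED14.5 and 6 in the liver, or by 5.49%, 11.4% and 7.91% of all genes.

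At ED7.5 the smallest p among members above background in a group belonged to Adamts7, with 6.00, 6.21, 6.04 and 6.22 in control and 6.92, 6.59, 6.61 and 6.48 in SL samples. All SL arrays lay above all control arrays, by 0.53 on average (95% interval 0.26 to 0.80, adjusted p = 0.678). Mmp28, Adamts10, Adamts17 and Mmp2 followed, with differences of 0.27, 0.27, 0.37 and 0.17 and an adjusted p from 0.906 to 0.957. For genes with large differences between ED7.5 and liver, the 95% intervals of the SL difference were −0.10 to 0.37 for Adamts3, −0.16 to 0.40 for Timp1, −0.34 to 0.73 for Timp3 and −0.93 to 0.33 for Mmp1a.

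At ED14.5 Timp2 read 7.43, 7.60, 7.83 and 7.67 in control and 7.31, 7.14, 7.61 and 7.35 in SL samples, a difference of −0.28 (95% interval −0.57 to 0.014, adjusted p = 0.457) between overlapping groups. Adamts1, Mmp19, Mmp14 and Mmp2 differed by −0.26, −0.16, −0.22 and 0.15 (adjusted p from 0.574 to 0.739).

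In the liver Adamts6 read 7.54, 7.16, 7.39 and 8.39 in control and 8.48, 8.10, 8.02 and 8.22 in SL samples, a difference of 0.59 (95% interval 0.025 to 1.15, adjusted p = 0.628). Timp2, Timp3, Adamts12 and Mmp19 differed by −0.27, −0.34, −0.22 and −0.19 (adjusted p from 0.67 to 0.76). The other members with an unadjusted p below 0.05 in the liver, Mmp1a, Mmp1b, Mmp13, Mmp21 and Adamts20, were below background on all arrays compared. A measure of array quality, how well control probes in exons stood out from those in introns (1 is complete), was 0.906 to 0.920 on control and 0.897 to 0.904 on SL liver arrays. The groups did not overlap in it, and its part in the liver values was not tested.

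Whether the SL difference itself varied with age was tested as interaction terms over all 24 arrays. Of the members 0 passed in any of the 3 terms, in which 1, 15 and 5 of all genes passed (liver minus ED7.5, ED14.5 minus ED7.5 and liver minus ED14.5). An unadjusted p below 0.05 was reached by 3, 1 and 3 members, and the share of all genes that reached it was not counted. The smallest adjusted p was that of Mmp1a in both liver terms (0.315 and 0.308), with every liver array below background. In the term ED14.5 minus ED7.5 it was that of Mmp16 (0.667). Adamts7, with SL differences of 0.53 at ED7.5 and −0.10 in the liver, had a difference of −0.63 between these effects (SE 0.3, adjusted p = 0.541).

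**Figure D4:**
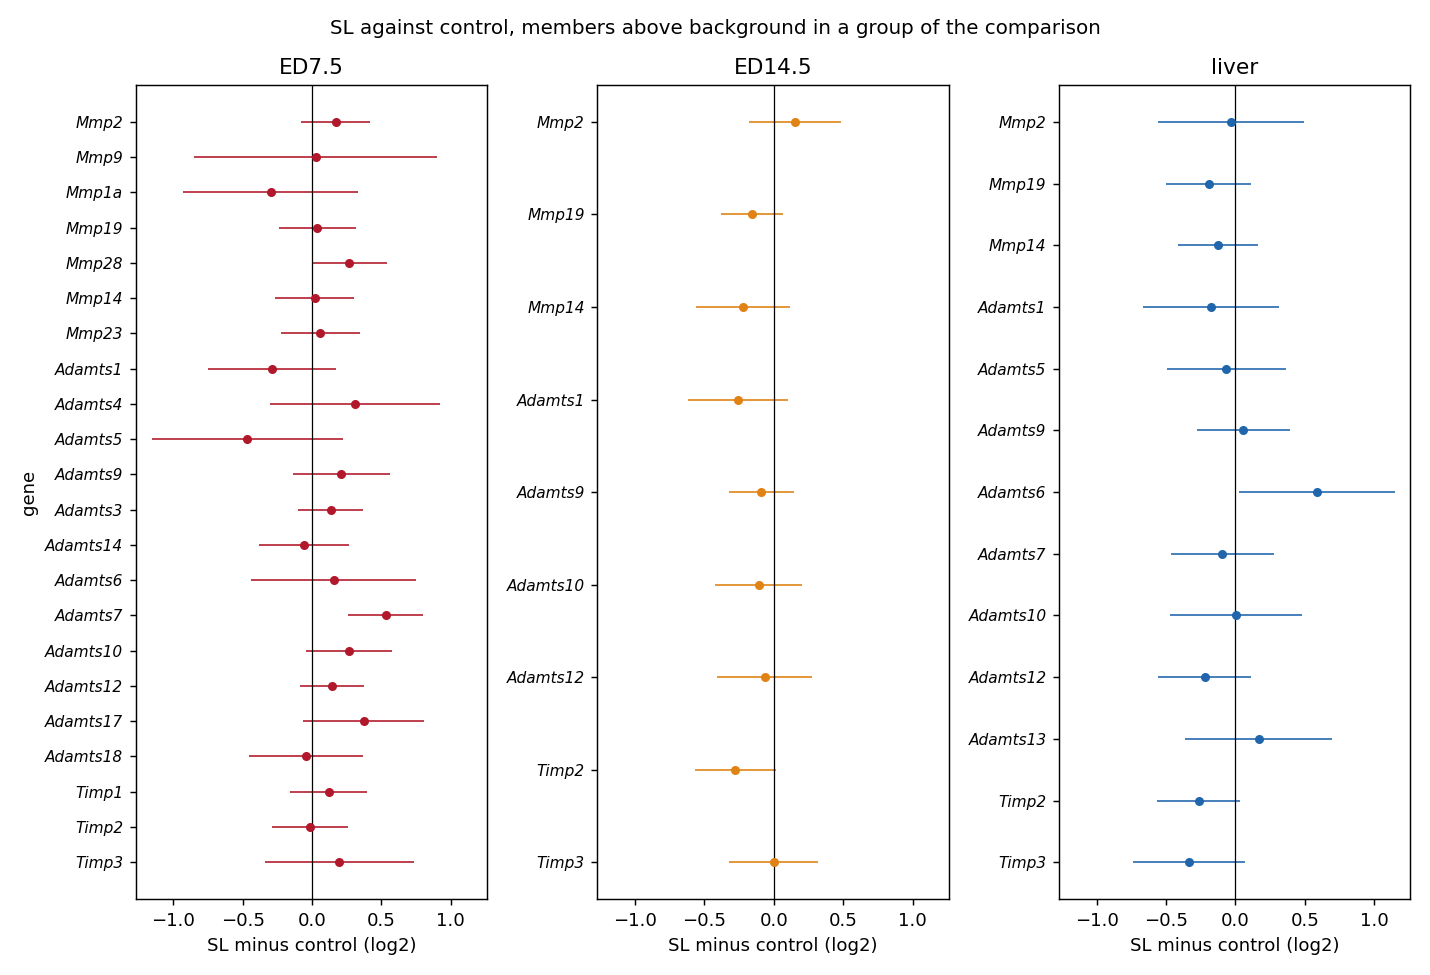
Difference of SL minus control in log2 with its 95% interval, for the members above background on all 4 arrays of at least 1 of the groups compared, at ED7.5 (left), ED14.5 (middle) and in the liver (right). The intervals of Adamts7 at ED7.5 and of Adamts6 in the liver leave out 0, and neither passed the adjustment over all genes.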

How the data were processed

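Total RNA of 24 samples was measured on single-colour arrays. The authors deposited log2 values, 1 per probe set and array, which per the submitters' processing notes come from RMA in oligo. RMA subtracts background, equalises the distributions of the arrays and summarises probes. Their versions and build were not given in the sources used here. From the method and the range of the values, log base 2 was taken. No further normalization was applied. Of 29129 probe sets, 19572 name 1 gene. Genes with several, 55 in all, kept the brightest over the 24 arrays.

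Groups were compared with linear models with moderated variances (limma 3.58.1, R 4.3.3, and data.table, 1.17.8) on the arrays of the groups compared. Two-sided p-values were adjusted by the Benjamini-Hochberg method over 19505 genes, with a threshold of 0.05. The scripts were tested on simulated data. Precision is set by 4 arrays a group, with a median standard error per gene from 0.143 to 0.187 in log2. P-values measure only the spread between these samples, which may be technical, and no batch is given in the labels. A fold against a group at or below background on all its arrays is a lower bound. It sets the mean of the brighter group against the mean, over the arrays of the dimmer one, of the higher of background and value.

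The members, roles and lists were chosen with earlier results of these data known. All members are accounted for: in comparisons of ages those above background on all 4 arrays of a group compared are named with values, in SL comparisons any called member and the 5 of smallest p among these, and from each pathway list the 4 of smallest p in ED7.5 against control liver. Of the marker lists, those of the epiblast and of neurons, muscle and cartilage were added after the data were seen. Alternatives were quantile normalization, a trended robust variance, dropping the dimmest 33% of genes, weights for arrays, 1 fit over all groups, a block for the replicate number, means of probe sets, a minimum difference of 1, other background percentiles and leaving out each array. Promoter sequences are RefSeq's on GRCm38.p6. Protein sequences were not analysed here. Figures used matplotlib 3.10.9 under Python 3.11.15.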

Additional observations from a re-analysis of the deposited data

Results flagged for a closer look

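Among 85 sets of 4 arrays in which a member was above background throughout, 3 had an array far from the other 3, by the ratio of its gap to the nearest of them to the range of the group (Dixon's test, 95% critical value). Chance flags about 1 in 20 such groups. Mmp2 read 10.08 on ED7.5 SL replicate 2 and 10.31 to 10.36 on the others, a ratio of 0.832. Adamts10 read 6.73 on ED14.5 SL replicate 4 and 6.93 to 6.95 on the others, a ratio of 0.897. Timp3 read 6.82 on liver control replicate 1 and 6.97 to 6.996 on the others, a ratio of 0.843.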

How the results depend on the processing

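When each array was left out in turn, members called higher and lower numbered 19 to 20 and 6 to 8 for ED7.5 against liver in the control arm, 19 to 21 and 7 to 9 in the SL arm, 7 to 8 and 14 to 19 for ED14.5 against liver and 21 to 23 and 4 to 5 for ED7.5 against ED14.5, and 0 in the SL comparisons and interactions. With a minimum difference of 1 the members lower at ED7.5 than in control liver numbered 4, and those higher and lower at ED14.5 than in liver 3 and 8. Without the dimmest 33% of genes 4 members were higher at ED14.5 than in liver and 3 lower at ED7.5 than at ED14.5. Counting only members above background on all 4 arrays of a group compared, a choice made after seeing the data, these counts were 0 and 1. These 3 settings drop members by construction. Adamts12, not called, reversed to −0.0039 for ED7.5 against control liver under quantile normalization and, for ED14.5 against liver, ranged from −0.12 to 0.0079 when each array was left out, the latter without ED14.5 control replicate 3, and the cause was not tested. Members above background on all 4 arrays of a group numbered 16 with the 95% and 32 with the 50% background.

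Arrays with the same replicate number did not deviate together, with correlations of their deviations from −0.165 to 0.116 and 1 of 20 pairs over 0.1, so the numbers were not taken as pairs. With the replicate block 21 members were higher and 7 lower at ED7.5 than in control liver, and 20 and 8 in the SL arm. Of the calls on members above background in a group compared, the block ended those of Adamts6 for ED7.5 against control liver (adjusted p = 0.0512) and of Adamts10 for ED14.5 against liver (adjusted p = 0.0573) and changed no other. Dim genes are limited by the background, which 13 of the 43 members exceeded on no array.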
